A study of Mus musculus with 15 samples.

Results

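Macrophages of the mouse small intestine that carried CD4 but not Tim-4 (Tim-4-CD4+) were compared with macrophages that carried neither protein (Tim-4-CD4-) by RNA sequencing, to describe how gene expression differed with CD4 among cells without Tim-4. The comparison used 8 of the 15 libraries of the study, 4 from each subset, taken by the subset names on the deposited columns of raw counts. The other libraries, 4 from Tim-4+CD4+ macrophages and 3 from Ly6Chi blood monocytes, shared the same statistical fit and are given here only as levels beside a result. Both groups came from adult wild-type C57BL/6 males with no transgene and no labelled treatment, and each library held cells pooled from 3 mice, so that a library is a pool and not an animal. The cells were sorted as live CD45+ cells with CD11b, CD64, and MHC class II and without Siglec F, TCRβ, B220, Ly6G, and Ly6C, and no gate on CD11c was named for this sort. Between 39388763 and 151510641 reads per library were assigned to genes, with the lowest total in Tim-4-CD4- replicate 4 and the highest in Tim-4-CD4+ replicate 4.

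Macrophages of the gut wall take up dying cells and bacteria, present antigen, and release mediators that act on the epithelium, vessels, and nerves around them. Many of them descend from Ly6Chi blood monocytes, which enter the tissue with the help of the chemokine receptor CCR2 and lose Ly6C and CCR2 as they mature. Tim-4 binds phosphatidylserine, a lipid exposed by dying cells, whereas CD4 is best known as the coreceptor of helper T cells and is also carried by some macrophages.

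Levels are given as CPM, a gene's reads relative to the library's total on the usual scale, after scaling of the libraries to each other by the trimmed mean of M values (TMM), in the order of replicates 1 to 4. Replicates have no order beyond these numbers. A difference is given on the log2 scale as Tim-4-CD4+ minus Tim-4-CD4- with its standard error (±), and a gene was called where its p-value from edgeR's quasi-likelihood test, adjusted over the 15802 genes tested, was under 0.05. "Rose" and "fell" are used of called genes only, for higher and lower levels in Tim-4-CD4+ macrophages. CPM are not divided by gene length, so levels were compared between groups and not between genes.

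The labels were checked against the genes of the sorted proteins. *Cd4* was at 14.5, 17.1, 39.2, and 20.7 CPM in the Tim-4-CD4- libraries and 484, 499, 598, and 541 CPM in the Tim-4-CD4+ libraries (log2 difference 4.54 ± 0.25, adjusted p = 4.5e-08), and the groups did not overlap. The low *Cd4* level in the Tim-4-CD4- libraries was above that in blood monocytes (0.156 to 0.26 CPM). *Timd4*, which encodes Tim-4, was at 0.566, 0.151, 2.93, and 0.802 CPM in the Tim-4-CD4- libraries and 4.47, 1.29, 0.511, and 0.547 CPM in the Tim-4-CD4+ libraries, against 336 to 389.9 CPM in the Tim-4+CD4+ libraries, so that both groups were low and overlapped (log2 difference 0.56 ± 0.70, adjusted p = 0.71). That value depended on single libraries, being 1.74 with Tim-4-CD4- replicate 3 left out and -0.62 with Tim-4-CD4+ replicate 1 left out.

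Genes of the other sorted proteins were present in all 8 libraries, as the gate requires. *Itgax*, which encodes CD11c and was not part of the gate, rose from between 632 and 782 CPM to between 846 and 1108 CPM (log2 difference 0.50 ± 0.10, adjusted p = 0.0033). *Itgam*, which encodes CD11b, fell from between 319.6 and 364 CPM to between 249 and 296 CPM (log2 difference -0.37 ± 0.09, adjusted p = 0.017). The *Itgam* difference was small, and the call was lost without Tim-4-CD4- replicate 2 or 4 or Tim-4-CD4+ replicate 2, 3, or 4, with adjusted p up to 0.066. *Fcgr1*, which encodes CD64, was at 288 to 318 CPM without CD4 and 264 to 283 CPM with CD4 (log2 difference -0.13 ± 0.16, adjusted p = 0.70). *Ptprc* (CD45), *H2-Ab1* (MHC class II), and *Cx3cr1*, the fractalkine receptor of mature gut macrophages, were not called, with overlapping groups and differences of 0.20 (adjusted p = 0.35), -0.11 (adjusted p = 0.85), and 0.18 (adjusted p = 0.50). *Ly6c2*, which encodes Ly6C and shares sequence with neighbouring family members, was at 1.5, 1.73, 2.13, and 1.53 CPM without CD4 and 3.46, 0.379, 1.07, and 0.486 CPM with CD4, compared with 820.0 to 1545 CPM in monocytes. Its groups overlapped (-0.41, adjusted p = 0.70), with the highest value in Tim-4-CD4+ replicate 1. Without that library *Ly6c2* was called lower (-1.38, adjusted p = 0.019), and without Tim-4-CD4+ replicate 4 its difference was -0.043.

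Markers of other cells were read as summed CPM per library. The 16 pan-macrophage genes summed to 39990.0 to 43610.0 CPM without CD4 and 38760.0 to 45550.0 CPM with CD4. T cell markers were low in both groups but did not overlap, at 7.51 to 13.1 CPM without CD4 and 15.4 to 25 CPM with CD4, and 4 of them were called higher (2 where a mean of at least 1 CPM was required), among them *Cd3e* at 0.466 to 1.04 CPM without CD4 and 1.72 to 2.95 CPM with CD4. The 18 epithelial markers summed to 16 to 24.9 CPM without CD4 and 27.4 to 32.6 CPM with CD4, with 4 called higher (2 without Tim-4-CD4- replicate 1). The 10 B cell markers summed to 163 to 172 CPM without CD4 and 278 to 323 CPM with CD4, a sum that moved with *Cd22*, the 1 called member, a sialic acid-binding receptor (117 to 127 CPM without CD4 and 234 to 273 CPM with CD4). The 16 dendritic cell markers summed to 1468 to 1634 CPM without CD4 and 1401 to 1594 CPM with CD4, with *Flt3*, *Itgae*, *Cd209a*, *Kit*, and *Naaa* called lower (8 markers with thinned counts). Mast cell markers summed to 5.33 to 14.1 CPM without CD4 and 2.84 to 3.39 CPM with CD4, with *Cpa3* at 0 counts in all 8 libraries and *Kit* the 1 called member. Only 5 of the 10 mast cell markers were among the genes counted, and 4 of these were below 1 CPM in all 8 libraries. The sum was therefore mostly *Kit*, which is also on the dendritic cell list. Plasma cell markers had the largest sums of the lists of other cells, at 4510 to 6219 CPM without CD4 and 3685 to 6793 CPM with CD4. Sums of plasma cell, neutrophil and eosinophil, mesenchymal, endothelial, and enteric neuron and glia markers overlapped between the groups. Of these lists *Prdm1* rose and *Mmp8* fell, although for *Prdm1* the call was lost without Tim-4-CD4- replicate 3 or Tim-4-CD4+ replicate 4, with adjusted p up to 0.058. With DESeq2, 1 endothelial marker was called in each direction, and 1 was called lower without Tim-4-CD4- replicate 4 or Tim-4-CD4+ replicate 4. The part of these other cells in the results was not tested. In bulk libraries such as these, fewer cells of a type and less RNA per cell cannot be told apart.

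In sets of genes, some of the libraries stood apart. Tim-4-CD4- replicate 3 was the highest of its group for the dendritic cell genes *Cd209a*, *Itgae*, and *Flt3* and for *Cdh1* and *Ccl22*. Tim-4-CD4- replicate 4 held 253 CPM in sum of the 15 tested among 20 pancreatic digestive enzyme genes. The sums were 5.91, 6.07, and 16.3 CPM in replicates 1 to 3 of that group and 9.01 to 12.7 CPM in the Tim-4-CD4+ libraries. Of the 15 enzyme genes tested, 10 were called lower, among them the lipase gene *Pnlip* and the elastase gene *Cela2a*, and 1 of 13 was called without that library, so that these genes are not described further. Tim-4-CD4+ replicate 1 was the highest of its group for *Timd4*, *Ly6c2*, *Flt3*, *Lsp1*, *S100a4*, *Tnip3*, and *St3gal5*. For the immediate early genes described below, Tim-4-CD4+ replicate 3 summed to 55100.0 CPM, against 38770.0 to 43460.0 CPM in the rest of its group. Tim-4-CD4- replicate 2 summed to 55250.0 CPM, against 46160.0 to 47980.0 CPM in the rest of its group.

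Across all genes, 1589 of 15802 were called (10.1%), of which 715 rose (4.52% of those tested) and 874 fell (5.53%). At least a 2-fold change was seen in 483 of the called genes (234 up and 249 down) and at least a 4-fold change in 145 (58 up and 87 down). The groups did not overlap in 1481 of the 1589 called genes. A gene whose groups are separate is more likely to be called, so that separation adds little to a call, here and below. Most called differences were moderate, with a median size of 0.67 on the log2 scale, and the median difference of all tested genes was -0.0029. Without Tim-4-CD4+ replicate 4, the deepest library, 1033 genes were called, 484 higher and 549 lower.

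**Figure D1:**
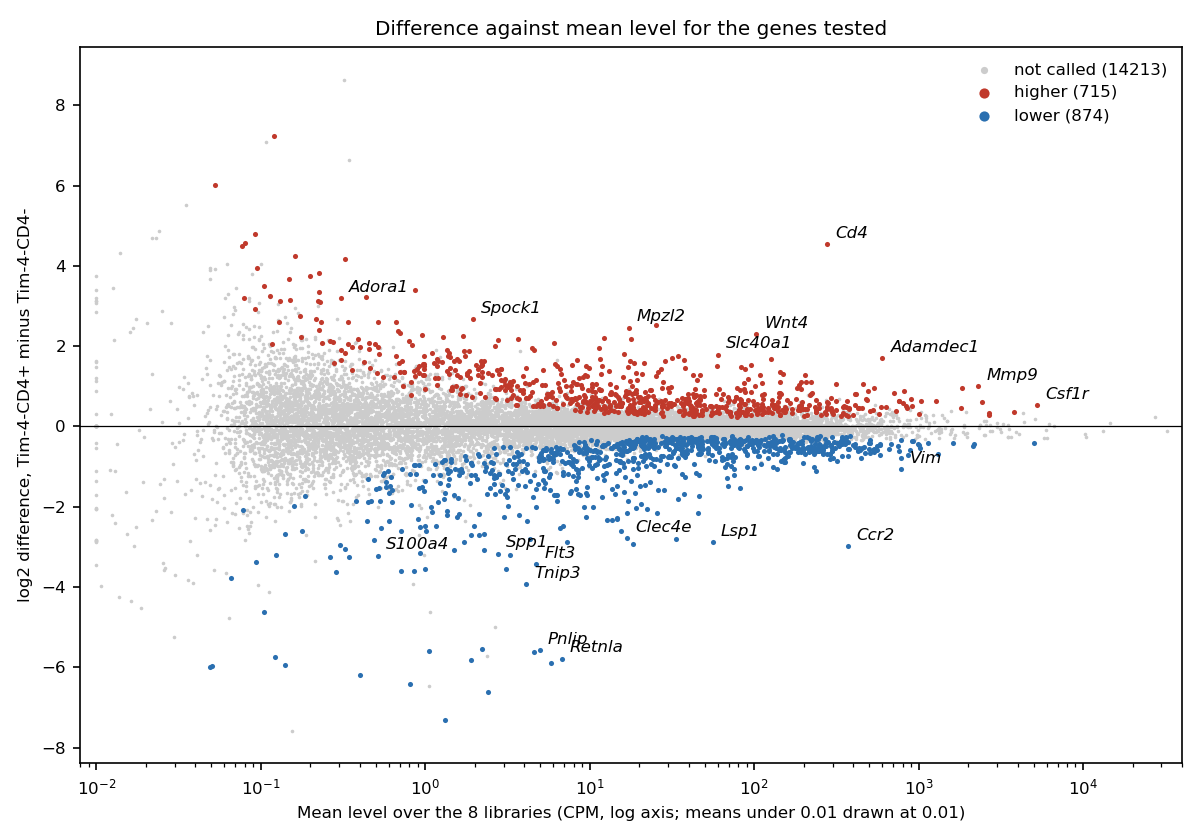
Log2 difference (Tim-4-CD4+ minus Tim-4-CD4-) against the mean level over the 8 libraries in CPM (log axis), with 1 point per tested gene. Red points are the 715 genes that rose, blue points the 874 that fell, and grey points were not called. *Cd4* lies alone among well-expressed genes on the upper side, and *Ccr2* is the strongest fall among genes with a mean above 100 CPM.

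The 4 genes given as marks of this pair of subsets were *Cd4*, *Retnla*, *Tnip3*, and *Upb1*. *Retnla* (chr16:48842551-48844461, strand + in GRCm38) encodes RELMα, a secreted protein of alternatively activated macrophages, and was at 14.9, 8.29, 17.8, and 11.9 CPM without CD4 and 0.165, 0.354, 0.332, and 0.149 CPM with CD4 (log2 difference -5.78 ± 0.45, adjusted p = 1.6e-06). *Tnip3* (chr6:65525313-65634040, strand +), an inhibitor of NF-κB signaling, was at 8.67, 5.83, 9.05, and 7.32 CPM without CD4 and 1.17, 0.303, 0.217, and 0.365 CPM with CD4 (log2 difference -3.93 ± 0.50, adjusted p = 6.8e-05), a difference of -4.68 without Tim-4-CD4+ replicate 1. In the Tim-4-CD4+ libraries these values rested on 9 to 26 counts of *Retnla* and 12 to 64 counts of *Tnip3*. *Upb1* (chr10:75401115-75441679, strand +), an enzyme of pyrimidine breakdown, was low throughout, at 0.566, 0.419, 0.819, and 0.311 CPM without CD4 and 0.0366, 0.0253, 0.0767, and 0.027 CPM with CD4 (log2 difference -3.62 ± 0.43, adjusted p = 4.0e-05). *Cd4* itself lies at chr6:124864692-124888221, strand -.

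Beyond these, the strongest falls among genes without overlap between the groups and with at least 1 CPM on average included genes of monocytes and of dendritic cells. *Ccr2*, the receptor that monocytes use to leave the bone marrow and enter tissue, was at 759, 510.2, 688, and 683 CPM without CD4 and 113, 70.2, 65.2, and 87.7 CPM with CD4 (log2 difference -2.97 ± 0.30, adjusted p = 7.5e-06), about 7.85-fold lower. *Lsp1*, an actin-binding protein of leukocytes, was at 89.3, 67.4, 159.5, and 77.3 CPM without CD4 and 16.6, 12.4, 12.1, and 12.2 CPM with CD4 (log2 difference -2.89 ± 0.23, adjusted p = 7.7e-07). *Napsa*, an aspartic protease, was at 32.7, 22.2, 52.7, and 21.9 CPM without CD4 and 6.59, 4.02, 2.69, and 3.95 CPM with CD4 (log2 difference -2.92 ± 0.30, adjusted p = 8.0e-06). Separation of the groups was a condition of choice for these genes, and *Lsp1* and *Napsa* were highest in Tim-4-CD4- replicate 3.

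*Flt3*, the growth factor receptor that drives dendritic cell development, was at 7.57, 4.41, 17.9, and 4.76 CPM without CD4 and 1.61, 0.607, 0.575, and 0.52 CPM with CD4 (log2 difference -3.42 ± 0.46, adjusted p = 0.00012), and its difference was -2.79 without Tim-4-CD4- replicate 3. *St3gal5*, the sialyltransferase that makes the ganglioside GM3, fell from between 4.53 and 7.5 CPM to between 0.294 and 0.971 CPM (log2 difference -3.55 ± 0.31, adjusted p = 1.8e-06). *Rgs18*, a regulator of G protein signaling, fell from between 3.07 and 4.79 CPM to between 0.294 and 0.843 CPM (log2 difference -3.08 ± 0.28, adjusted p = 2.5e-06). *Haao*, an enzyme of tryptophan breakdown, fell from between 1.17 and 4.29 CPM to between 0.269 and 0.44 CPM (log2 difference -3.09 ± 0.33, adjusted p = 1.1e-05). The adhesion protein gene *Nectin1* (-2.88), the cytokine-like matrix protein gene *Spp1* (-3.17), and the collagen receptor gene *Ddr1* (-3.21, or -2.55 without Tim-4-CD4- replicate 3) completed the set of 12 with *Retnla* and *Tnip3*. Because the 12 genes were chosen for groups without overlap, their separation is not a result.

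Among abundant genes that fell at least 2-fold, *Vim*, which encodes the intermediate filament vimentin, was at 855, 1457, 757, and 1176 CPM without CD4 and 369, 516, 755, and 399 CPM with CD4 (log2 difference -1.06 ± 0.25, adjusted p = 0.011), with the groups separated by a narrow margin. *Plxnb2*, a semaphorin receptor (-1.02, adjusted p = 2.0e-05), *Emilin2*, an extracellular matrix glycoprotein (109.7 to 131 CPM without CD4 and 56.1 to 63.1 CPM with CD4), *C3*, the central complement component (-1.04, adjusted p = 9.8e-05), and the chemokine gene *Ccl6* (-1.01, adjusted p = 0.00020) were also in this set, with *Ccr2*, *Dusp2*, and *Ahnak*. *Ahnak* fell by a similar amount (-1.07, adjusted p = 0.032), but the call was lost without Tim-4-CD4- replicate 1 or 2 or Tim-4-CD4+ replicate 2, 3, or 4, with adjusted p up to 0.10.

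The largest rises after *Cd4*, also chosen for groups without overlap and at least 1 CPM on average, were of genes with varied products. *Spock1*, a secreted proteoglycan, was at 0.31, 0.385, 0.388, and 1.09 CPM without CD4 and 3.41, 4, 2.69, and 3.26 CPM with CD4 (log2 difference 2.67 ± 0.30, adjusted p = 5.0e-05). *Gas1*, a membrane protein that takes part in Hedgehog and growth arrest signaling, was at 7.57, 7.61, 5.63, and 8.9 CPM without CD4 and 32, 40.8, 50.7, and 48.3 CPM with CD4 (log2 difference 2.53 ± 0.18, adjusted p = 2.8e-07). *Mpzl2*, an adhesion protein, was at 4.53, 5.66, 5.58, and 5.46 CPM without CD4 and 26.1, 32, 28.7, and 30 CPM with CD4 (log2 difference 2.46 ± 0.14, adjusted p = 4.5e-08). *Spock1* was highest of its group in Tim-4-CD4- replicate 4, and that value was still below each Tim-4-CD4+ library.

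*Wnt4*, a secreted Wnt ligand, was at 30.2, 33.2, 34.4, and 41 CPM without CD4 and 178, 208, 150.5, and 151 CPM with CD4 (log2 difference 2.31 ± 0.17, adjusted p = 3.0e-07), about 4.95-fold higher. *Il12rb2*, a chain of the interleukin-12 receptor, was at 6.46, 5.71, 6.83, and 7.01 CPM without CD4 and 32, 30.5, 25.7, and 28.7 CPM with CD4 (log2 difference 2.17 ± 0.16, adjusted p = 3.6e-07). *Hoxb5*, a homeobox transcription factor, was at 2.41, 2.5, 2.09, and 2.2 CPM without CD4 and 9.76, 9.13, 9.97, and 10.2 CPM with CD4 (log2 difference 2.08 ± 0.22, adjusted p = 9.9e-06). These groups were tight, with the lowest library with CD4 far above the highest without it, although some separation was a condition of choice. The class Ib MHC gene *H2-M2* (2.20), the sialyltransferase gene *St6galnac3* (2.16), the diacylglycerol kinase gene *Dgki* (2.23), *Nckap5* (2.17), and the butyrophilin-like pseudogene *Btnl7-ps* (2.26), whose reads can be shared with related genes, completed the set of 12.

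Among abundant genes that rose at least 2-fold were 3 metalloproteases. *Adamdec1*, a secreted member of the ADAM family typical of gut macrophages, was at 297, 252, 259.9, and 315 CPM without CD4 and 819.7, 993, 774, and 1086 CPM with CD4 (log2 difference 1.71 ± 0.16, adjusted p = 4.1e-06). *Mmp9*, a gelatinase, was at 1401, 1809, 1487, and 1436 CPM without CD4 and 2966, 2887, 3180.2, and 3276 CPM with CD4 (log2 difference 1.01 ± 0.12, adjusted p = 4.5e-05). *Mmp2*, the other gelatinase, rose from between 105 and 156 CPM to between 245 and 308 CPM (log2 difference 1.12 ± 0.17, adjusted p = 0.00039). The complement gene *C6* rose from between 188 and 235 CPM to between 405 and 438 CPM (log2 difference 1.06 ± 0.14, adjusted p = 7.7e-05). *Pxdc1* (1.28), *Fam234b* (1.07), and *AW011738* (1.10) were the remaining abundant rises. None of the libraries overlapped between the groups for these 7 genes.

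**Figure D2:**
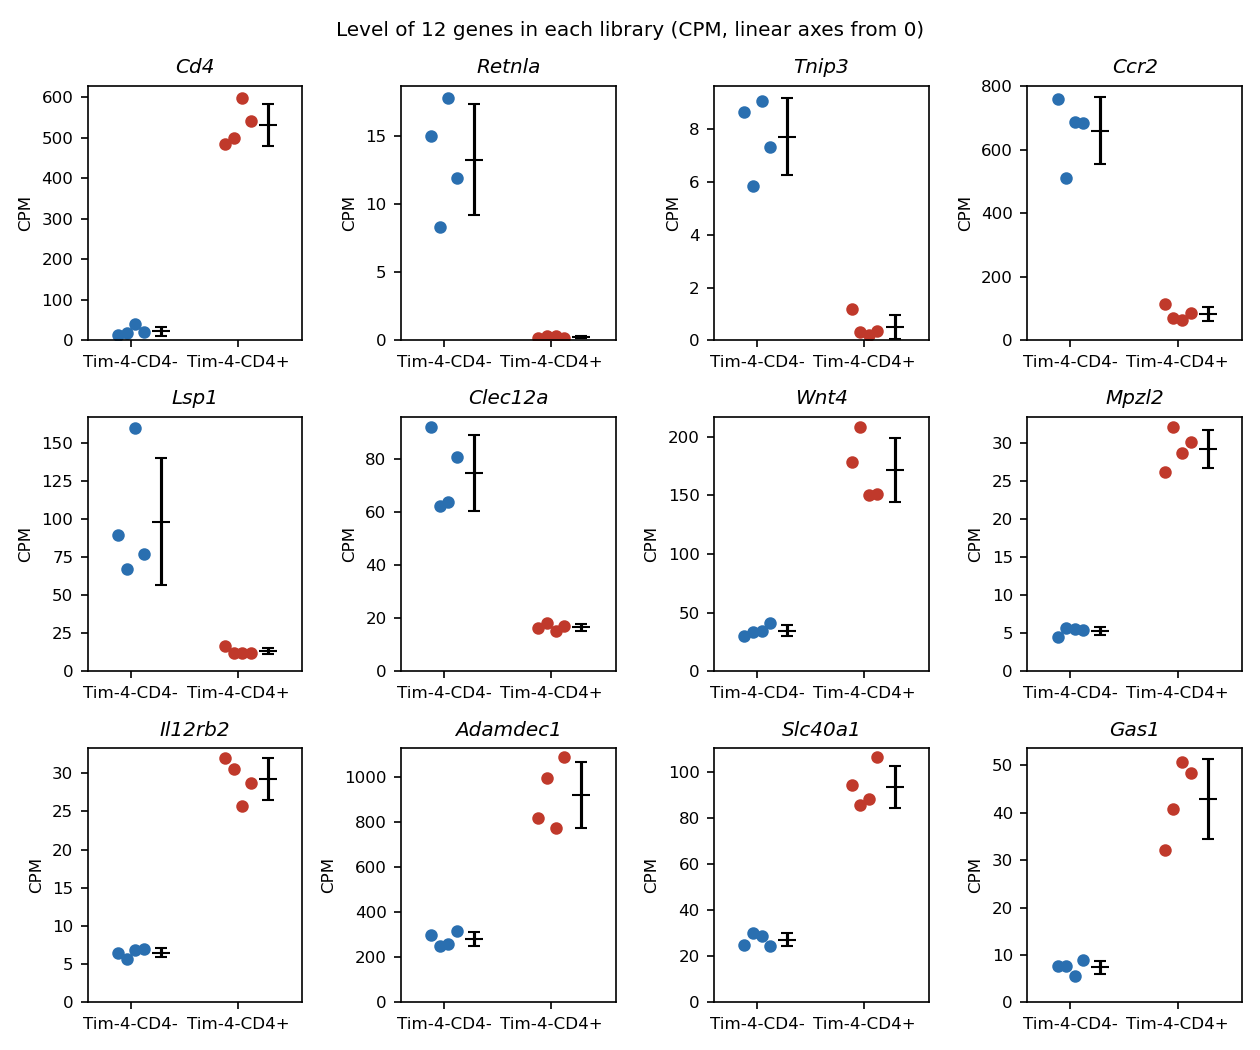
Level of 12 genes in CPM (linear axes from 0) in each Tim-4-CD4- (blue) and Tim-4-CD4+ (red) library, with 1 point per library and the mean and SD of the 4 libraries as a bar. The groups are separate in every panel, with *Cd4*, *Wnt4*, *Mpzl2*, *Il12rb2*, *Adamdec1*, *Slc40a1*, and *Gas1* higher and *Retnla*, *Tnip3*, *Ccr2*, *Lsp1*, and *Clec12a* lower in Tim-4-CD4+ macrophages. *Cd4* is the gene of a sorted protein. *Retnla*, *Tnip3*, *Ccr2*, *Lsp1*, *Wnt4*, *Mpzl2*, *Il12rb2*, and *Gas1* were chosen for groups without overlap, so that their separation is not a result.

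The change was then read over 36 lists of genes by pathway or role, each described by how many of its tested members rose or fell and by its median difference, against 4.52% risen, 5.53% fallen, and a median of -0.0029 over all genes. The lists do not hold every gene of a pathway. Counts of members are given with the changes by more than 1.5 times that came from leaving out a library, from DESeq2 in place of edgeR, from another scaling or filter, or from a fit to only the 8 libraries compared (the 8-library fit).

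**Figure D3:**
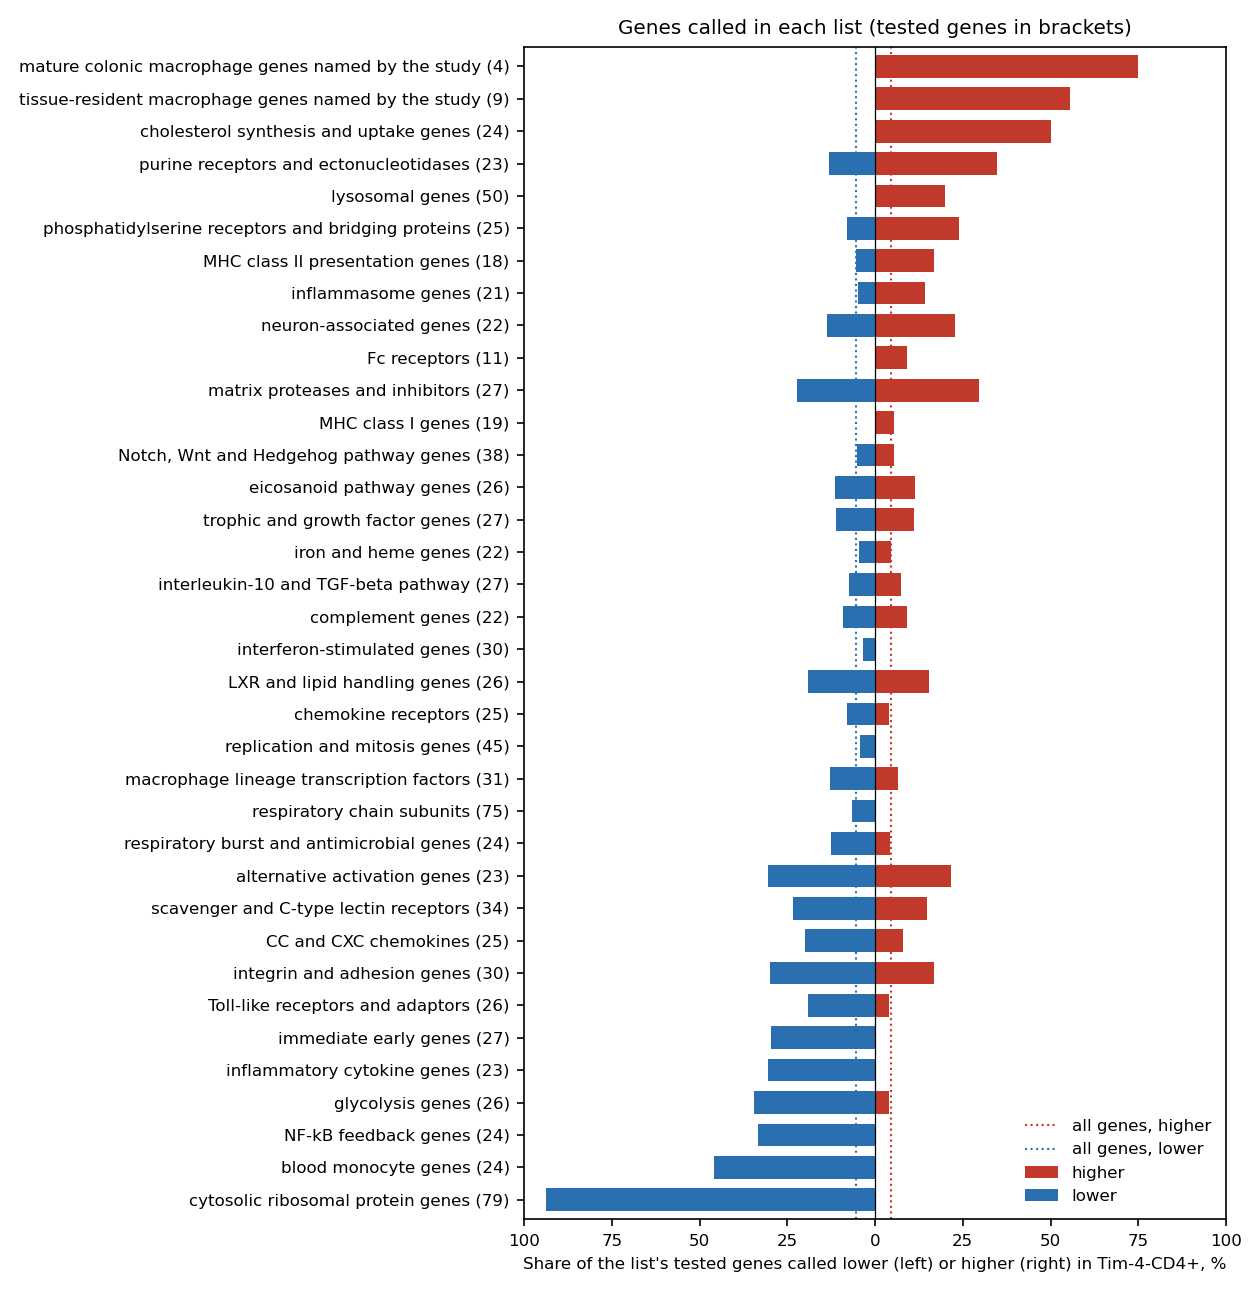
Share of the tested genes of each of the 36 lists that fell (blue, to the left) or rose (red, to the right) in Tim-4-CD4+ macrophages, in percent, with the number tested in brackets and dotted lines at the shares of all genes. Ribosomal protein and blood monocyte genes reach farthest on the falling side, and cholesterol synthesis genes and 2 short lists named by the study reach farthest on the rising side.

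Genes typical of blood monocytes were called in the falling direction. Of 24 tested, 11 fell and 0 rose, with a median difference of -0.83, and the count of falls was between 11 and 15 when any 1 library was left out, and 1 gene rose in the 8-library fit. *S100a4*, a calcium-binding protein, was at 1.06, 0.402, 1.16, and 1.01 CPM without CD4 and 0.403, 0.0253, 0.0256, and 0.027 CPM with CD4 (log2 difference -3.21 ± 0.56, adjusted p = 0.0013), and its value became -5.00 when Tim-4-CD4+ replicate 1 was dropped and -2.58 when replicate 4 of that group was. *Plac8*, a cysteine-rich protein of monocytes, was at 65.6, 40.2, 83.1, and 46.3 CPM without CD4 and 11.7, 7.36, 7.95, and 7.07 CPM with CD4 (log2 difference -2.79 ± 0.24, adjusted p = 1.7e-06). Its groups were well separated, whereas *S100a4* was low everywhere and overlapped by 1 library.

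*S100a6* (-2.34) and *Ifitm6* (-1.76), a membrane protein of the interferon-induced family, and *Fn1*, which encodes fibronectin (-1.20), fell as well, as did *Ccr2* (-2.97). *Lyz2*, the lysozyme gene shared by monocytes and macrophages, was not called (-0.28, adjusted p = 0.11, and 0.033 in the 8-library fit). The list summed to 10560.0 to 12470.0 CPM without CD4 and 9187 to 10690.0 CPM with CD4, which overlapped, and most of that sum came from genes that were not called.

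Short lists that the study itself drew from macrophage data went the other way. Of 4 genes of mature colonic macrophages, 3 rose (*H2-M2*, *Lrrc4c*, and *Ocstamp*). *Lrrc4c*, a netrin G ligand, was at 13.2, 6.4, 10.5, and 12.8 CPM without CD4 and 29.4, 35.4, 20.4, and 43 CPM with CD4 (log2 difference 1.58 ± 0.24, adjusted p = 0.00035), and *Dtx3*, a ubiquitin ligase, was just outside the threshold (log2 difference 0.55 ± 0.17, adjusted p = 0.051). It was called with DESeq2 (adjusted p = 0.015), in the 8-library fit (adjusted p = 0.0094), and without Tim-4-CD4+ replicate 1 (adjusted p = 0.026). Of 9 genes that the study names for tissue-resident macrophages or long-lived Kupffer cells of the liver, among them *Timd4*, 5 rose and 0 fell. The count was 2 on leaving out Tim-4-CD4- replicate 1, 2, or 4 or Tim-4-CD4+ replicate 1 or 2 and 3 on leaving out Tim-4-CD4+ replicate 4. These genes were chosen with the same libraries in view, so that their direction is not independent evidence.

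Chemokines and their receptors were split. Of 25 chemokine genes, 2 rose and 5 fell (median -0.01), and leaving out libraries did not move these counts by more than 1.5 times. *Ccl17*, a ligand of CCR4, was at 2.15, 0.838, 2.93, and 1.42 CPM without CD4 and 0.147, 0.101, 0.256, and 0.115 CPM with CD4 (log2 difference -3.54 ± 0.63, adjusted p = 0.0020). *Ccl22*, its partner ligand, was at 23.1, 14.4, 55.9, and 13.5 CPM without CD4 and 5.18, 3.41, 4.63, and 4.45 CPM with CD4 (log2 difference -2.59 ± 0.38, adjusted p = 0.00031, or -1.94 without Tim-4-CD4- replicate 3). Both ligands of CCR4 were therefore lower in every library with CD4.

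*Cxcl3*, a neutrophil attractant (-1.30), and the chemokine gene *Ccl9* (-1.28) also fell. *Ccl24*, the eosinophil attractant eotaxin-2, rose and was at 21.2, 17.6, 20, and 21.8 CPM without CD4 and 54.5, 64.9, 51.3, and 51 CPM with CD4 (log2 difference 1.46 ± 0.18, adjusted p = 4.6e-05), and *Ccl8*, another eosinophil and monocyte attractant, rose from between 25.2 and 32.6 CPM to between 42.6 and 53.1 CPM (log2 difference 0.69 ± 0.12, adjusted p = 0.0014). Of 25 receptor genes (2 rises with DESeq2 and in the 8-library fit), *Fpr1*, the formyl peptide receptor, rose (0.68, adjusted p = 0.0020), and *Ccr2* and *Gpr35* fell. *Gpr35*, a G protein-coupled receptor for tryptophan metabolites and other ligands, was at 35.6, 30.1, 31.7, and 25.5 CPM without CD4 and 8.06, 6.2, 8.78, and 6.88 CPM with CD4 (log2 difference -2.04 ± 0.16, adjusted p = 7.9e-07).

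Inflammatory cytokine genes fell or were not called. Of 23 tested, 7 fell and 0 rose (median -0.26), a count that was 4 on leaving out Tim-4-CD4- replicate 1 or 2 or Tim-4-CD4+ replicate 4, and 1 rose with DESeq2 and in the 8-library fit. *Il1a*, which encodes interleukin-1α, was at 71.8, 69.7, 48.7, and 68.1 CPM without CD4 and 25.1, 25.3, 32, and 29 CPM with CD4 (log2 difference -1.21 ± 0.15, adjusted p = 7.1e-05). *Il6*, which encodes interleukin-6, was at 5.48, 6.74, 3.26, and 4.04 CPM without CD4 and 0.769, 1.16, 2.08, and 1.76 CPM with CD4 (log2 difference -1.74 ± 0.35, adjusted p = 0.0034). *Tnfsf9*, the ligand of the costimulator 4-1BB, was at 28.2, 31.3, 28.4, and 19.4 CPM without CD4 and 8.01, 6.17, 10.2, and 5.25 CPM with CD4 (log2 difference -1.86 ± 0.21, adjusted p = 2.1e-05). For all 3, the highest library with CD4 was below the lowest without it.

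*Tnf* fell by less (-0.54, adjusted p = 0.0023), and *Il23a*, which encodes a subunit of interleukin-23, fell from between 1.6 and 2.79 CPM to between 0.303 and 1.15 CPM (-1.70, adjusted p = 0.047), although the call was lost without Tim-4-CD4- replicate 1, 2, 3, or 4 or Tim-4-CD4+ replicate 1, 2, or 4, with adjusted p up to 0.13, and was also lost with other scalings, without a filter, and with thinned counts (adjusted p = 0.050 to 0.069). *Il1b*, at 3411 to 4214 CPM without CD4 and 2631 to 3427 CPM with CD4, was not called (-0.25, adjusted p = 0.50). *Il10*, the main cytokine of gut macrophages that restrains inflammation, was at 99, 90, 72.5, and 83.5 CPM without CD4 and 88.8, 111, 118, and 124 CPM with CD4 and was not called either (log2 difference 0.35 ± 0.14, adjusted p = 0.15).

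Genes of NF-κB feedback also fell without a rise. This list held subunits and regulators of NF-κB, such as *Rela* and *Nfkbib*, which both fell, beside genes that NF-κB induces. Of 24 tested, 8 fell (median -0.28). The count was 5 on leaving out Tim-4-CD4- replicate 2 or Tim-4-CD4+ replicate 1, 2, or 4, and 12 on leaving out Tim-4-CD4+ replicate 3. *Traf1*, a signaling adaptor of tumor necrosis factor receptors, was at 20.2, 22.6, 21.2, and 17 CPM without CD4 and 6.45, 6.07, 8.86, and 6.33 CPM with CD4 (log2 difference -1.55 ± 0.16, adjusted p = 1.1e-05). *Nfkbia*, the inhibitor IκBα, was at 750.1, 807, 622, and 701 CPM without CD4 and 353, 382, 609.9, and 426 CPM with CD4 (log2 difference -0.70 ± 0.16, adjusted p = 0.0081). Tim-4-CD4+ replicate 3 was the highest of its group for both genes and stayed below each Tim-4-CD4- library.

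*Zc3h12a*, the RNase Regnase-1 (-0.58, adjusted p = 0.0062), and *Nfkbiz*, the nuclear regulator IκBζ (-0.48, adjusted p = 0.0060), fell too. A form of the NF-κB binding site, GGGA and TTTCC with any base between them, was sought because some of these genes are NF-κB targets. This form was looked for on both strands in the 250 bases before the start of each gene (RefSeq, GRCm38.p6). It was found in 2 of the 21 list genes with a sequence, *Nfkbia* and *Nfkb2*, and in 0.414% of the promoters of all 27025 genes with a sequence (0.485% of tested genes). A match is a description of letters and not a measured binding site. The promoter of *Nfkbia* (chr12:55492648-55492897, minus strand) is shown 5′ to 3′ because it holds a match, in capitals, which reads in this form on the opposite strand and begins 29 bases before the start.
Nfkbia: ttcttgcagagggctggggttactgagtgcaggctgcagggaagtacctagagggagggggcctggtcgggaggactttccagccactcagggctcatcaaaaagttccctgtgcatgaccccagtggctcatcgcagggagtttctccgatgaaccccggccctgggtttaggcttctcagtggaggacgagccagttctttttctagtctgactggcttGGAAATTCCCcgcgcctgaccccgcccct

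Immediate early genes, which cells switch on within minutes of a stimulus, followed the same direction in part. Of 27 tested, 8 fell and 0 rose (median -0.22), with 6 to 11 falls when any 1 library was left out. *Dusp2*, a phosphatase of MAP kinases, was at 374, 367, 256, and 301 CPM without CD4 and 106, 134, 197, and 161 CPM with CD4 (log2 difference -1.12 ± 0.20, adjusted p = 0.0013). *Nr4a2*, an orphan nuclear receptor, was at 89.2, 86.4, 108, and 77.3 CPM without CD4 and 47.1, 48, 46.5, and 47 CPM with CD4 (log2 difference -0.93 ± 0.10, adjusted p = 1.4e-05). *Nr4a2* was even among the libraries with CD4, and both genes were separate between the groups.

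*Egr3* (-0.98, adjusted p = 0.013), *Egr2* (-0.88, adjusted p = 0.00071), and *Nr4a1* (-0.69, adjusted p = 0.0056), transcription factors of this class, fell. *Fos* and *Jun*, which form the factor AP-1 and are often raised by tissue digestion, were not called, with values of 0.02 (adjusted p = 0.95) and -0.05 (adjusted p = 0.86), and *Jun* was at 3344 to 4134 CPM without CD4 and 3223 to 4145 CPM with CD4.

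**Figure D4:**
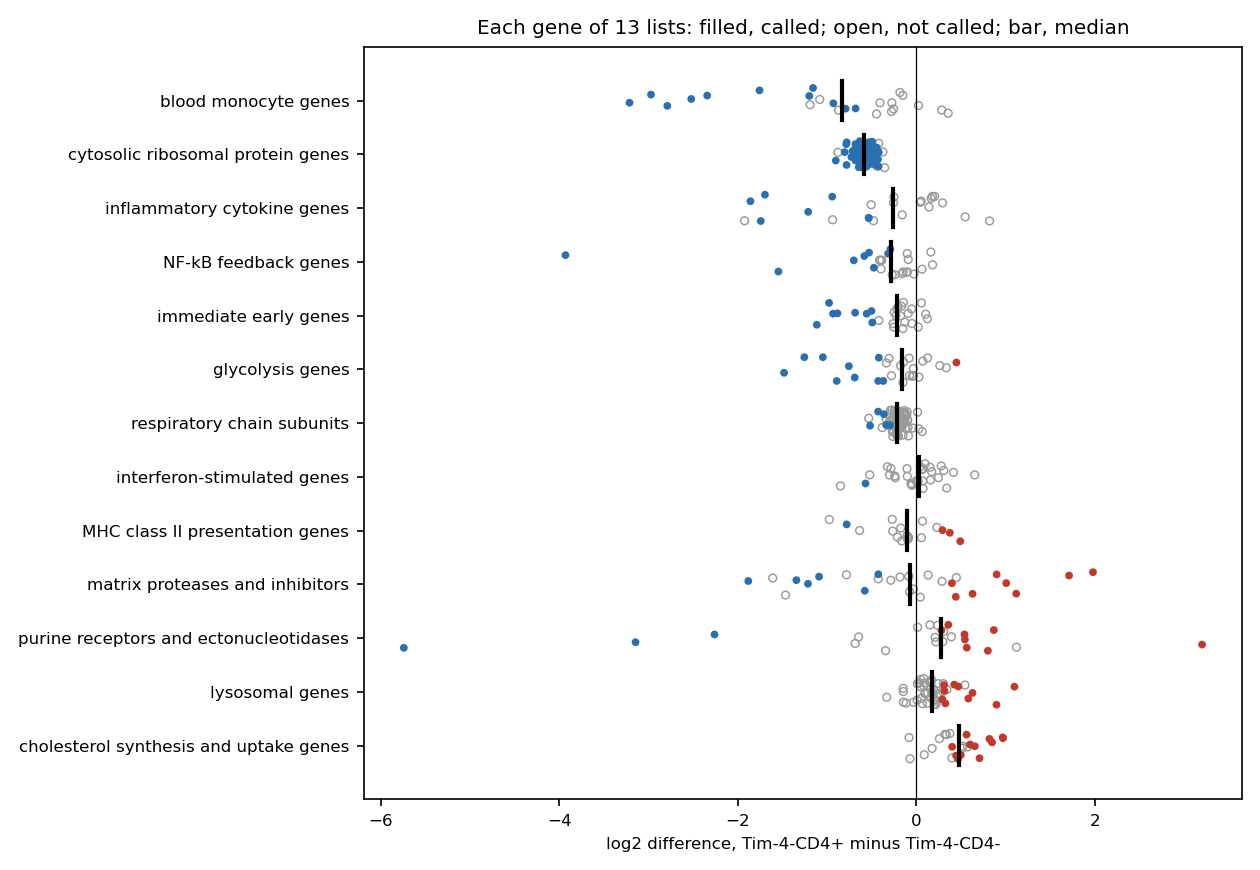
Log2 difference of each tested gene of 13 lists, with filled points for called genes (red risen, blue fallen), open points for genes not called, and a black bar at the median. Ribosomal protein genes form a tight group below 0, cholesterol and lysosomal genes lie mostly above 0, and cytokine, NF-κB, and immediate early genes spread from 0 to lower values.

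Genes of alternative activation, the state that interleukin-4 induces, did not move as a group. Of 23 tested, 5 rose and 7 fell (median -0.26). Besides *Retnla*, *Ccl17*, and *Ccl22*, the falls were *Fn1*, *Cd36*, *Egr2*, and the galactose lectin gene *Clec10a* (-0.56, adjusted p = 0.0088). The rises were *Ccl24*, *Msr1*, *Stab1*, *Socs2*, and *Pdcd1lg2*, which encodes the inhibitory ligand PD-L2 and was at 25.3, 22.9, 24.8, and 25.6 CPM without CD4 and 57.3, 59.6, 56.3, and 68.4 CPM with CD4 (log2 difference 1.29 ± 0.13, adjusted p = 6.2e-06). *Mrc1*, the mannose receptor, was not called (0.08, adjusted p = 0.84). *Retnla* and *Pdcd1lg2* thus moved in opposite directions, and neither overlapped between the groups.

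Most receptors for dying cells were not called. Of 25 genes for phosphatidylserine receptors and their bridging proteins, 6 rose and 2 fell (median 0.05), and the count of rises was 2 on leaving out Tim-4-CD4- replicate 4 or Tim-4-CD4+ replicate 4 and 3 on leaving out Tim-4-CD4- replicate 3. *Mertk*, the receptor kinase that macrophages use to engulf dying cells, was at 116, 128, 98.8, and 101 CPM without CD4 and 161, 171, 164, and 185 CPM with CD4 (log2 difference 0.62 ± 0.15, adjusted p = 0.016), and the call was lost without Tim-4-CD4- replicate 3 or 4 or Tim-4-CD4+ replicate 4, with adjusted p up to 0.057. *Stab2*, which encodes stabilin-2, a receptor of the same family as stabilin-1, was low and rose from between 0.414 and 1.26 CPM to between 1.34 and 3.31 CPM (log2 difference 1.46 ± 0.38, adjusted p = 0.024), but the call was lost without Tim-4-CD4- replicate 1, 3, or 4 or Tim-4-CD4+ replicate 3 or 4, with adjusted p up to 0.076. *Havcr2*, which encodes Tim-3, a relative of Tim-4, rose (0.50, adjusted p = 0.0063). *Cd300lb*, a phosphatidylserine receptor of myeloid cells, fell and was at 13.1, 12.4, 9.87, and 10.9 CPM without CD4 and 4.43, 3.06, 4.33, and 3.41 CPM with CD4 (log2 difference -1.60 ± 0.14, adjusted p = 2.1e-06).

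Of 34 scavenger and C-type lectin receptor genes, 5 rose and 8 fell (median 0.11), with 3 rises without Tim-4-CD4- replicate 3 or 4 or Tim-4-CD4+ replicate 4. *Clec12a*, an inhibitory lectin, was at 92.1, 62.5, 63.7, and 80.7 CPM without CD4 and 16.3, 18.3, 15.2, and 17.2 CPM with CD4 (log2 difference -2.16 ± 0.17, adjusted p = 8.8e-07). *Clec4e*, which encodes Mincle, a receptor for mycobacterial glycolipids, was at 37.9, 31.9, 17.4, and 30.1 CPM without CD4 and 3.04, 3.94, 5.66, and 4.34 CPM with CD4 (log2 difference -2.78 ± 0.24, adjusted p = 1.6e-06). *Clec4n*, which encodes Dectin-2, a receptor for fungal mannans, rose and was at 158, 163, 159, and 169 CPM without CD4 and 278, 300.0, 279, and 295 CPM with CD4 (log2 difference 0.83 ± 0.12, adjusted p = 0.00028). The lectins that fell, among them *Cd209a* (-1.57), and those that rose were each separate between the groups.

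*Olr1*, a receptor for oxidized lipoprotein (-2.19, adjusted p = 0.00059), and *Cd36*, a fatty acid transporter (-0.78, adjusted p = 0.00051), fell, whereas *Msr1*, the class A scavenger receptor, was at 304, 269, 310.1, and 331 CPM without CD4 and 603, 546, 402, and 562 CPM with CD4 (log2 difference 0.80 ± 0.16, adjusted p = 0.0037). *Stab1*, which encodes stabilin-1, rose (0.45, adjusted p = 0.0047). *Cd163*, the hemoglobin scavenger receptor, was not called (0.48, adjusted p = 0.12, and 0.044 in the 8-library fit).

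Genes of proteases that cut the extracellular matrix and of their inhibitors changed in both directions. Of 27 tested, 8 rose and 6 fell (median -0.08), and the summed level was 5933 to 6311 CPM without CD4 and 8688 to 9635 CPM with CD4, without overlap. The rises included the abundant genes *Adamdec1*, *Mmp9*, and *Mmp2* and also *Mmp13*, a collagenase (0.63, adjusted p = 0.0071). *Mmp12*, the macrophage elastase, fell and was at 31.3, 21, 26.2, and 23.7 CPM without CD4 and 10.6, 10.3, 7.11, and 12.2 CPM with CD4 (log2 difference -1.34 ± 0.21, adjusted p = 0.00054). *Mmp8*, the neutrophil collagenase, was low and fell from between 0.569 and 1.72 CPM to between 0.147 and 0.405 CPM (log2 difference -1.88 ± 0.40, adjusted p = 0.0053). *Cst3*, which encodes the cathepsin inhibitor cystatin C and is also high in dendritic cells, fell as well (-0.58, adjusted p = 0.0036).

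Of 30 integrin and adhesion genes, 5 rose and 9 fell (median -0.05), with rises numbering 8 in the 8-library fit and 3 on leaving out Tim-4-CD4- replicate 3 or 4 or Tim-4-CD4+ replicate 2 or 4, and falls 4 on leaving out Tim-4-CD4+ replicate 2 and 5 on leaving out Tim-4-CD4+ replicate 4. *Itgb7*, the integrin chain that guides leukocytes to the gut, was at 110.2, 102, 111, and 88.5 CPM without CD4 and 37, 32.9, 41.3, and 36.2 CPM with CD4 (log2 difference -1.48 ± 0.15, adjusted p = 7.0e-06). *Cadm1*, an adhesion protein of epithelia and nerves, was at 132, 108, 123, and 131 CPM without CD4 and 267, 263, 238, and 291 CPM with CD4 (log2 difference 1.10 ± 0.18, adjusted p = 0.00061). *Pecam1*, an adhesion protein of endothelium and myeloid cells, was at 105, 105, 103, and 102 CPM without CD4 and 172, 195, 167, and 206 CPM with CD4 (log2 difference 0.84 ± 0.14, adjusted p = 0.00071). Each of the 3 was separate between the groups. *Itgae* and *Cdh1*, which encode CD103 and its ligand E-cadherin, were called lower but rested on Tim-4-CD4- replicate 3, at 24.7 and 10.7 CPM against at most 5.43 and 1.45 CPM in the other libraries without CD4, and without it their differences were -0.65 and -1.28 and not called. The *Itgae* call was also lost in the 8-library fit (adjusted p = 0.061) and without Tim-4-CD4+ replicate 1, 2, 3, or 4 (adjusted p = 0.059 to 0.12). The *Cdh1* call was also lost without Tim-4-CD4+ replicate 2, 3, or 4 (adjusted p = 0.063 to 0.089).

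Growth factor genes moved both ways, with 3 rises and 3 falls among 27 (median 0.07), and 1 fall where a mean of at least 1 CPM was required. Besides *Wnt4*, the rises were *Igf1*, a survival factor for epithelium and nerves (0.61, adjusted p = 0.014; the call was lost without Tim-4-CD4- replicate 1, with adjusted p up to 0.052), and *Pdgfc*, a growth factor for mesenchymal cells, which was at 12, 14.2, 9.49, and 8.2 CPM without CD4 and 23.4, 22.5, 32.9, and 31 CPM with CD4 (log2 difference 1.32 ± 0.19, adjusted p = 0.00030). *Vegfa*, which drives the growth of blood vessels, fell and was at 48.8, 48.2, 36.9, and 36.4 CPM without CD4 and 12.9, 14.6, 14.9, and 15 CPM with CD4 (log2 difference -1.57 ± 0.16, adjusted p = 8.5e-06). *Areg*, a ligand of the epidermal growth factor receptor, fell from between 1.06 and 1.93 CPM to between 0.228 and 0.448 CPM (log2 difference -2.31 ± 0.44, adjusted p = 0.0034). *Vegfa* and *Areg* were separate between the groups.

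Genes named for roles in neurons changed in both directions. Of 22 tested, 5 rose and 3 fell (median -0.14). *Unc5b*, a netrin receptor, was at 15.2, 14.6, 12.4, and 16.2 CPM without CD4 and 40.4, 44.9, 32, and 40.6 CPM with CD4 (log2 difference 1.43 ± 0.17, adjusted p = 2.9e-05), and rose with *Spock1*, *Lrrc4c*, *Cadm1*, and *Kcnj10*. *Plxnd1*, a semaphorin receptor, fell (-0.80, adjusted p = 0.00081), and so did the glutamate receptor gene *Gria3* (-2.35, adjusted p = 0.0029).

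Genes of cholesterol synthesis and uptake were mostly higher with CD4, and as many were called as not. Of 24 tested, 12 rose and 0 fell (median 0.48), 22 of the 24 differences were above 0, and the rises numbered 9 to 12 when any 1 library was left out. The summed level was 1164, 1100.0, 1214, and 1137 CPM without CD4 and 1380.0, 1709, 1395, and 1616 CPM with CD4, with no overlap. The lowest sum with CD4, in replicate 1, was above the highest without it, in replicate 3.

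*Msmo1*, a sterol oxidase, was at 53.9, 47.4, 52.8, and 58.6 CPM without CD4 and 91.5, 125, 91.6, and 109 CPM with CD4 (log2 difference 0.97 ± 0.13, adjusted p = 9.3e-05). *Sqle*, the squalene epoxidase that opens the sterol branch, was at 21.6, 18.4, 21.6, and 19.4 CPM without CD4 and 39.4, 46.2, 32.2, and 40.4 CPM with CD4 (log2 difference 0.97 ± 0.13, adjusted p = 0.00015). *Hmgcs1*, a synthase early in the pathway, was at 56.6, 54, 60.2, and 66.5 CPM without CD4 and 87.7, 108, 84.9, and 107 CPM with CD4 (log2 difference 0.71 ± 0.12, adjusted p = 0.00084). Each rose in all libraries with CD4 above all libraries without it. *Hsd17b7* (0.85, adjusted p = 0.0039) and *Fdft1*, squalene synthase (0.65, adjusted p = 0.014), rose as well, and for *Fdft1* the call was lost without Tim-4-CD4+ replicate 2, with adjusted p up to 0.059. *Srebf2*, which encodes the transcription factor of the pathway, was not called (-0.08, adjusted p = 0.67).

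The sequence TCACNCCAC, a form of the sterol response element, was found on either strand of the 250 bases before the start in 1 of the 17 list genes with a RefSeq sequence, *Hmgcs1*, and in 1.22% of all promoters (1.21% of tested genes). The *Hmgcs1* promoter (chr13:119690101-119690350, plus strand, GRCm38.p6) is shown for this gene because its level rose and it holds the match, in capitals, which begins 137 bases before the start.
Hmgcs1: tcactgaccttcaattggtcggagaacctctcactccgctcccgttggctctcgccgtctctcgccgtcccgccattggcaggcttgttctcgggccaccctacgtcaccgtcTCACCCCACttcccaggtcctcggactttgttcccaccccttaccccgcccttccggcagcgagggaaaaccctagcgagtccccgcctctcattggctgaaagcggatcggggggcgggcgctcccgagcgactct

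Other lipid genes did not follow in 1 direction. Of 26 genes of lipid handling and of the sterol receptor LXR, 4 rose and 5 fell (median -0.02). *Gpnmb*, a glycoprotein of lipid-laden macrophages, was at 14.7, 26.1, 13.5, and 17.4 CPM without CD4 and 49.4, 55.6, 59.4, and 62.8 CPM with CD4 (log2 difference 1.66 ± 0.20, adjusted p = 4.4e-05). *Lpl*, lipoprotein lipase, fell and was at 78.3, 55.6, 50.7, and 60.4 CPM without CD4 and 27.7, 23.6, 25.9, and 32.1 CPM with CD4 (log2 difference -1.16 ± 0.17, adjusted p = 0.00022). *Trem2*, a lipid receptor, fell from between 20.3 and 30.9 CPM to between 10.7 and 13.4 CPM (log2 difference -1.05 ± 0.19, adjusted p = 0.0014). The cholesterol exporter gene *Abca1* (-0.14, adjusted p = 0.83) and *Apoe* (0.23, adjusted p = 0.48) were not called.

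Lysosomal genes leaned upward. Of 50 tested, 10 rose and 0 fell (median 0.17), 44 of the 50 differences were above 0, and 6 rose without Tim-4-CD4- replicate 3 and 17 in the 8-library fit. A single member fell with DESeq2, with thinned counts, or without Tim-4-CD4- replicate 2. *Acp5*, the tartrate-resistant acid phosphatase, was at 554, 583, 568, and 582 CPM without CD4 and 936, 1073, 1104, and 1144 CPM with CD4 (log2 difference 0.90 ± 0.11, adjusted p = 4.0e-05). *Cd63*, a tetraspanin of late endosomes, was at 91, 98.9, 79.6, and 94.1 CPM without CD4 and 156, 194, 214, and 213 CPM with CD4 (log2 difference 1.10 ± 0.18, adjusted p = 0.00083). *Ctsl*, the protease cathepsin L, was at 273, 318, 271, and 297 CPM without CD4 and 429.9, 439, 457, and 464 CPM with CD4 (log2 difference 0.63 ± 0.09, adjusted p = 0.00022). For these genes the groups did not overlap. *Ctsf*, cathepsin F (0.58, adjusted p = 0.012), *Tpp1*, a peptidase (0.47, adjusted p = 0.00043), and *Lgmn*, the asparagine protease legumain (0.29, adjusted p = 0.039), rose by less, and for *Lgmn* the call was lost without Tim-4-CD4- replicate 1, 2, 3, or 4 or Tim-4-CD4+ replicate 1, 2, 3, or 4, with adjusted p up to 0.15, and also with upper-quartile scaling and without a filter.

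The sequence CACGTG, the core of the site read by lysosomal gene regulators of the TFEB family and also by other factors, was found on either strand before the start of 13 of 39 list genes with a sequence, among them 3 of the 9 that rose. It was found in 6.86% of all promoters and in 9.5% of those of tested genes. The promoters of *Ctsl* (chr13:64370521-64370770) and *Lgmn* (chr12:102439093-102439342), both on the minus strand of GRCm38.p6, are shown as examples of genes that rose and hold it, in capitals, 236 and 49 bases before the start.
Ctsl: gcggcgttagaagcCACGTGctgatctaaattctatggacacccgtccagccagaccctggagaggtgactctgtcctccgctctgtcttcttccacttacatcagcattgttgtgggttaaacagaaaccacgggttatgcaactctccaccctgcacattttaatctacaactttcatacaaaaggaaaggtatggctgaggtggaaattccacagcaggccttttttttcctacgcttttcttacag
Lgmn: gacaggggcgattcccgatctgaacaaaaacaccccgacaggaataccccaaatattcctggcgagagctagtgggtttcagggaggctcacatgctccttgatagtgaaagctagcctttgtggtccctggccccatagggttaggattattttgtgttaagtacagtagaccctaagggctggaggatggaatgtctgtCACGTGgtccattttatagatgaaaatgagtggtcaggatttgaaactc

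Among 22 iron and heme genes, *Slc40a1*, which encodes ferroportin, the iron exporter of cells, was the 1 that rose, although 2 rose with DESeq2 or upper-quartile scaling and 5 in the 8-library fit. It was at 25, 30.1, 28.9, and 24.3 CPM without CD4 and 94.1, 85.4, 88.4, and 106 CPM with CD4 (log2 difference 1.79 ± 0.13, adjusted p = 2.8e-07), about 3.45-fold higher. *Steap3*, a ferric reductase of endosomes, was the 1 that fell (of 2 in the 8-library fit), from between 4.23 and 5.37 CPM to between 0.834 and 1.89 CPM (log2 difference -1.59 ± 0.19, adjusted p = 3.4e-05). Both were separate between the groups. Of the list, 9.09% were called, near the 10.1% of all tested genes.

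Receptors and enzymes for extracellular purines, which dying and activated cells release, differed in 11 of their genes. Of 23 tested, 8 rose and 3 fell (median 0.28), with the rises numbering 4 on leaving out Tim-4-CD4- replicate 1, 3, or 4 or Tim-4-CD4+ replicate 4 and 5 on leaving out Tim-4-CD4+ replicate 2, and 1 fall where a mean of at least 1 CPM was required. The falls included *Adora2a* and *Adora2b*, the adenosine receptors that raise cyclic AMP. *Adora2a* was at 3.07, 2.6, 2.44, and 2.25 CPM without CD4 and 0.476, 0.228, 0.857, and 0.527 CPM with CD4 (log2 difference -2.26 ± 0.27, adjusted p = 4.0e-05). *Adora2b* was at 1.31, 1.66, 2.26, and 1.45 CPM without CD4 and 0.275, 0.0506, 0.294, and 0.122 CPM with CD4 (log2 difference -3.15 ± 0.43, adjusted p = 0.00013). Both receptors were lower in every library with CD4, although neither was abundant.

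*Adora1*, an adenosine receptor that lowers cyclic AMP, was at 0.11, 0.0168, 0.108, and 0 CPM without CD4 and 0.421, 0.405, 0.511, and 0.878 CPM with CD4 (log2 difference 3.20 ± 0.66, adjusted p = 0.0055), at most 6 counts per library without CD4. *Adora3*, of the same kind, was at 8.69, 19.7, 9.1, and 11.6 CPM without CD4 and 17.7, 20.7, 30.8, and 20.3 CPM with CD4 (log2 difference 0.87 ± 0.25, adjusted p = 0.040). Its groups overlapped, and the call was lost without Tim-4-CD4- replicate 1, 3, or 4 or Tim-4-CD4+ replicate 2, 3, or 4, with adjusted p up to 0.13. *P2ry2*, a receptor for ATP and UTP (0.56, adjusted p = 0.0088), and *Enpp1*, an enzyme that splits extracellular nucleotides (0.80, adjusted p = 0.00042), rose too. *Entpd1*, the ectonucleotidase CD39, was not called (0.39, adjusted p = 0.061) but passed with DESeq2, other scalings, the 8-library fit, or a mean of at least 1 CPM (adjusted p = 0.019 to 0.050) and without Tim-4-CD4- replicate 2 (adjusted p = 0.0089). Its relative *Entpd3* was called lower on 18, 0, 27, and 2 counts against 0, 0, 0, and 1, and the call was lost without Tim-4-CD4+ replicate 1 or 2, with adjusted p up to 0.053.

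Of 26 eicosanoid genes, 3 rose and 3 fell (median -0.10), with 5 falls in the 8-library fit. *Alox5ap*, the protein that presents arachidonate to 5-lipoxygenase, was at 58.8, 48.8, 66.8, and 54.8 CPM without CD4 and 22.8, 18, 17.7, and 13.8 CPM with CD4 (log2 difference -1.67 ± 0.14, adjusted p = 1.6e-06). *Ltb4r1*, the leukotriene B4 receptor (-1.53, adjusted p = 3.4e-05), and *Ptger4*, the prostaglandin E receptor EP4 (-0.87, adjusted p = 0.00047), fell with it. *Hpgds*, the prostaglandin D synthase of hematopoietic cells, rose and was at 179, 141, 157, and 167 CPM without CD4 and 315, 287, 215, and 309 CPM with CD4 (log2 difference 0.81 ± 0.13, adjusted p = 0.00055), and so did the cyclooxygenase gene *Ptgs1* (0.52, adjusted p = 0.00061) and the cysteinyl leukotriene receptor gene *Cysltr2* (1.03, adjusted p = 0.00050). Members on the leukotriene side were thus found in both directions.

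Glycolysis genes mostly fell where they were called. Of 26 tested, 9 fell and 1 rose (median -0.16), with falls numbering 5 on leaving out Tim-4-CD4- replicate 2 or 3 or Tim-4-CD4+ replicate 2 or 4. The lactate transporter gene *Slc16a3* was at 12.2, 11.6, 14.2, and 10.2 CPM without CD4 and 5.39, 4.22, 4.58, and 5.89 CPM with CD4 (log2 difference -1.26 ± 0.15, adjusted p = 5.0e-05). The glucose transporter family gene *Slc2a6* was at 21.8, 23.8, 23.7, and 17.7 CPM without CD4 and 6.14, 6.93, 10.9, and 7.08 CPM with CD4 (log2 difference -1.48 ± 0.15, adjusted p = 1.0e-05), and the enzyme gene *Pfkp*, platelet phosphofructokinase, also fell (-0.69, adjusted p = 0.00083). Both transporters were separate between the groups. *Gpi1* (-0.37, adjusted p = 0.0092) fell slightly, and *Ldha* (-0.05, adjusted p = 0.88) was not called. Hexokinase 3, encoded by *Hk3*, was the 1 rise (0.45, adjusted p = 0.021), and the call was lost without Tim-4-CD4- replicate 1, 3, or 4 or Tim-4-CD4+ replicate 2 or 4, with adjusted p up to 0.068.

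Of 75 respiratory chain subunit genes, 72 had a difference below 0 (median -0.21). Rises numbered 0 and falls 5, or 6.67%, near the 5.53% of all tested genes that fell. The count was 13 in the 8-library fit, 8 with DESeq2, 2 with upper-quartile scaling or without a filter, 2 on leaving out Tim-4-CD4- replicate 1 or 3 or Tim-4-CD4+ replicate 1, 2, or 4 and 3 on leaving out Tim-4-CD4- replicate 4. *Ndufa6*, a subunit of complex I, was at 42.5, 41.2, 44.5, and 42.9 CPM without CD4 and 28, 35, 32.1, and 31.9 CPM with CD4 (log2 difference -0.43 ± 0.09, adjusted p = 0.0037). The differences in this list were small, and most members were not called.

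Cytosolic ribosomal protein genes were, of the 36 lists, the one with the largest share called. Of 79 tested, 74 fell and 0 rose, all 79 differences were below 0, and the median was -0.59. The list summed to 25480.0, 24280.0, 25560.0, and 25070.0 CPM without CD4 and 15550.0, 17020.0, 18440.0, and 16270.0 CPM with CD4. The highest sum with CD4, in replicate 3, was below the lowest without it, in replicate 2, and 62 to 75 genes were called lower when any 1 library was left out.

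*Rpsa*, a component of the small subunit, was at 595, 557, 549.7, and 549 CPM without CD4 and 318, 319, 351, and 318 CPM with CD4 (log2 difference -0.79 ± 0.12, adjusted p = 0.00029). *Rplp0*, the stalk protein of the large subunit, fell as well (-0.72, adjusted p = 0.00012). The 5 members not called were *Rps21*, *Fau*, *Rpl13a*, *Rpl39*, and *Rpl41*, with differences between -0.36 and -0.88. Many of these genes have processed copies elsewhere in the genome, and the deposited counts kept uniquely mapped reads, so that single values are uncertain.

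Messages of ribosomal proteins are known to open with a run of pyrimidines at the transcription start, the 5′ terminal oligopyrimidine tract, through which their translation is controlled. The search was for a C that followed a C or T and came before at least 4 more such bases. It covered the sense strand within 5 bases of the start, and a run of C and T could begin before this C. The stretch from this C on was found in 25 of 58 list genes with a RefSeq sequence and in 22 of the 53 of these that fell. It was found in 12.2% of all 27025 genes and in 13.7% of tested genes. The 20 bases before and the first 10 bases from the start of 4 genes that fell are shown with that stretch in capitals. They are, in order, *Rps9* (chr7:3704021-3704050), *Rpl7a* (chr2:26910787-26910816), *Rpl19* (chr11:98026904-98026933), and *Rpl28* (chr7:4792945-4792974), each on the plus strand of GRCm38.p6.
Rps9: gtccaaccgccttgtCTCTCTTTgtctcgg
Rpl7a: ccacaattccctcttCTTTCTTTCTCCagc
Rpl19: gggcttgggctctccCCTTCgcagataatg
Rpl28: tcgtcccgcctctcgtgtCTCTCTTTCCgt

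*Rps9* was at 811, 783, 765, and 778 CPM without CD4 and 482, 533, 595, and 515 CPM with CD4 (log2 difference -0.56 ± 0.12, adjusted p = 0.0049). *Rpl7a* was at 558, 497, 535, and 525 CPM without CD4 and 299.6, 369, 395, and 349 CPM with CD4 (log2 difference -0.58 ± 0.10, adjusted p = 0.0013). *Rpl19* (-0.49, adjusted p = 0.0041) and *Rpl28* (-0.68, adjusted p = 0.0040) fell by similar amounts, and the groups did not overlap for any of the 4.

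Replication and mitosis genes were lower without passing the test in most cases. Of 45 tested, 2 fell and 0 rose (median -0.32), 44 of the differences were below 0, and the falls numbered 0 on leaving out Tim-4-CD4- replicate 3 or 4 or Tim-4-CD4+ replicate 1 or 4 and 4 on leaving out Tim-4-CD4- replicate 1 and 5 on leaving out Tim-4-CD4+ replicate 3. They numbered 9 in the 8-library fit, 5 with DESeq2, 4 where a mean of at least 1 CPM was required, and 1 with other scalings or without a filter. *Mcm5*, a subunit of the replicative helicase, was at 37.3 to 44.3 CPM without CD4 and 27.6 to 34.8 CPM with CD4 (log2 difference -0.36 ± 0.10, adjusted p = 0.026), and the call was lost without Tim-4-CD4- replicate 3 or 4 or Tim-4-CD4+ replicate 1 or 4, with adjusted p up to 0.10. *Mki67*, a marker of dividing cells, was not called (-0.19, adjusted p = 0.67). The share of the list that fell, 4.44%, was below the 5.53% of all tested genes.

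Of 18 MHC class II presentation genes, 22.2% were called, against 10.1% of all genes. Of these, 3 rose and 1 fell (median -0.10), the rises numbered 1 on leaving out Tim-4-CD4- replicate 1 or Tim-4-CD4+ replicate 1 or 4, and the falls 2 with DESeq2 and 3 in the 8-library fit. *Cd80*, a costimulatory ligand of T cells, rose from between 29.1 and 31.7 CPM to between 34.8 and 41.5 CPM (log2 difference 0.37 ± 0.09, adjusted p = 0.0092). *H2-Ob*, a regulator of peptide loading, fell from between 22.4 and 35.3 CPM to between 13.5 and 19.2 CPM (log2 difference -0.78 ± 0.15, adjusted p = 0.0027). Of 19 MHC class I genes, *H2-M2* rose and none fell, although 2 rose with DESeq2 and 2 fell in the 8-library fit. The share that rose, 5.26%, was near the 4.52% of all tested genes. *H2-M2*, of the nonclassical family, was at 3.63, 5.36, 3.49, and 4.92 CPM without CD4 and 12.1, 24.5, 21.1, and 22.5 CPM with CD4 (log2 difference 2.20 ± 0.25, adjusted p = 2.1e-05), with no overlap. Of 30 interferon-stimulated genes, *Isg20* fell (-0.58, adjusted p = 0.015) and none rose (median 0.03), against 3 rises and 2 falls in the 8-library fit. The share that fell, 3.33%, was below the 5.53% of all tested genes. For *Isg20* the call was lost without Tim-4-CD4- replicate 3 or Tim-4-CD4+ replicate 4, with adjusted p up to 0.060, and 2 genes fell without Tim-4-CD4+ replicate 1. *Isg15* was not called (0.41, adjusted p = 0.19) but was in the 8-library fit (adjusted p = 0.0016).

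Innate sensing genes were also mixed. Of 26 genes of Toll-like receptors and their adaptors, 1 rose and 5 fell (median 0.01), with falls numbering 3 on leaving out Tim-4-CD4- replicate 1 or 2 or Tim-4-CD4+ replicate 2, and rises 2 on leaving out Tim-4-CD4+ replicate 3, 2 with DESeq2, and 3 in the 8-library fit. *Tlr12*, a receptor for profilin of protozoa, was at 365, 405, 341, and 387 CPM without CD4 and 574, 620.4, 567, and 618 CPM with CD4 (log2 difference 0.67 ± 0.12, adjusted p = 0.0013). *Tlr2*, the receptor for bacterial lipoproteins, fell and was at 94.3, 89.2, 94.4, and 103 CPM without CD4 and 61.1, 54, 47.6, and 49.3 CPM with CD4 (log2 difference -0.85 ± 0.09, adjusted p = 2.0e-05). The groups were separate for both. Of 21 inflammasome genes, 3 rose and 1 fell (median 0.15), with 6 rises without Tim-4-CD4+ replicate 3. *Nlrp3*, the best known sensor, fell (-0.42, adjusted p = 0.0047), and *Nod1*, a sensor of bacterial peptidoglycan (0.49, adjusted p = 0.0033), and *Txnip* (0.49, adjusted p = 0.0026) rose.

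Of the 22 complement genes of a list that does not hold *C6*, *C2* and the complement receptor gene *Itgax* rose and *C3* and *Itgam* fell (median 0.14), with rises numbering 1 in the 8-library fit, 1 on leaving out Tim-4-CD4- replicate 1, 2, or 4 or Tim-4-CD4+ replicate 1, 2, or 4, and falls 1 on leaving out Tim-4-CD4- replicate 2 or 4 or Tim-4-CD4+ replicate 2, 3, or 4. *C3* fell and was at 122, 157, 133, and 126 CPM without CD4 and 74.5, 61.5, 69.4, and 55.1 CPM with CD4 (log2 difference -1.04 ± 0.14, adjusted p = 9.8e-05). Of 11 Fc receptor genes, *Fcrl1* rose (0.74, adjusted p = 0.0055) and none fell (median 0.10). The share called, 9.09%, was near the 10.1% of all tested genes. Of 24 respiratory burst and antimicrobial genes, 1 rose and 3 fell (median -0.10), with 6 falls in the 8-library fit. *Gpx3*, a secreted glutathione peroxidase, was at 46, 51.8, 39.6, and 39.4 CPM without CD4 and 114, 104, 144, and 131 CPM with CD4 (log2 difference 1.48 ± 0.19, adjusted p = 7.2e-05), about 2.79-fold higher, whereas *Gpx1*, the cytosolic enzyme, fell (-0.50, adjusted p = 0.0047).

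Of 31 transcription factors of the macrophage lineage, 2 rose and 4 fell (median -0.08), with 5 rises in the 8-library fit and 1 rise without Tim-4-CD4- replicate 1, 3, or 4 or Tim-4-CD4+ replicate 2, 3, or 4. *Id3*, an inhibitor of helix-loop-helix factors, was at 23.5, 32.1, 18.5, and 24.3 CPM without CD4 and 6.78, 6.95, 11.5, and 6.37 CPM with CD4 (log2 difference -1.64 ± 0.20, adjusted p = 4.0e-05). *Stat4*, the signal transducer of interleukin-12, fell and was at 11, 15, 11.6, and 12.9 CPM without CD4 and 5.31, 7.16, 10.2, and 6.76 CPM with CD4 (log2 difference -0.78 ± 0.19, adjusted p = 0.013), while the receptor chain gene *Il12rb2* rose. *Tfec*, a relative of the lysosomal regulator TFEB, was at 15.3, 19.4, 13, and 17.5 CPM without CD4 and 26, 34.4, 32.1, and 29.1 CPM with CD4 (log2 difference 0.90 ± 0.14, adjusted p = 0.00041). The lineage factors *Spi1* (-0.07, adjusted p = 0.75) and *Maf* (0.12, adjusted p = 0.79) were not called.

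Of 27 genes of the interleukin-10 and TGF-β pathways, 2 rose and 2 fell (median -0.05), with 4 falls without Tim-4-CD4+ replicate 3. Each share was 7.41%, against 4.52% risen and 5.53% fallen over all tested genes. *Socs3*, an inhibitor of cytokine signaling, was at 1015, 1074, 976, and 907 CPM without CD4 and 548, 499, 736, and 531 CPM with CD4 (log2 difference -0.78 ± 0.11, adjusted p = 0.00021). *Smad6*, an inhibitor of BMP signaling (0.86, adjusted p = 0.0035), and *Ltbp1*, which stores latent TGF-β (0.82, adjusted p = 0.0085), rose, and the receptor gene *Tgfbr2* (0.04, adjusted p = 0.87) was not called. A list of 38 genes of the Notch, Wnt, and Hedgehog pathways did not hold *Wnt4* and *Gas1*, which rose, or *Wnt6*, a Wnt ligand gene that fell (-1.97, adjusted p = 0.039), for which the call was lost without Tim-4-CD4- replicate 2 or 4 or Tim-4-CD4+ replicate 2 or 3, with adjusted p up to 0.14. In this list *Tcf7l2* and *Hes1* rose and *Jag1* and *Fzd4* fell (median 0.19), although leaving out any of several single libraries ended the calls of *Tcf7l2*, *Hes1*, and *Fzd4*. The share that rose and the share that fell were each 5.26%, near the 4.52% and 5.53% of all tested genes. The rises numbered 4 with DESeq2, 5 in the 8-library fit, 0 on leaving out Tim-4-CD4- replicate 1 or 4 or Tim-4-CD4+ replicate 2 and 1 on leaving out Tim-4-CD4- replicate 2 or 3 or Tim-4-CD4+ replicate 1, 3, or 4, and the falls 1 with thinned counts, 1 on leaving out Tim-4-CD4- replicate 1 or Tim-4-CD4+ replicate 2 or 3. *Jag1*, a Notch ligand, was the clearest of these and fell from between 2.65 and 7.46 CPM to between 1.29 and 1.69 CPM (log2 difference -1.68 ± 0.28, adjusted p = 0.00090). *Csf1r*, the receptor for the growth factor that macrophages need to survive, rose and was at 4427, 4371, 4029, and 4271 CPM without CD4 and 5925, 6143, 5844, and 6772 CPM with CD4 (log2 difference 0.53 ± 0.07, adjusted p = 9.3e-05). *Slamf7*, a receptor of activated leukocytes, fell from between 87.7 and 116 CPM to between 42.4 and 53.9 CPM (log2 difference -1.05 ± 0.17, adjusted p = 0.00060).

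The levels of the same genes in the other populations are given side by side with no test of likeness, because comparisons among populations share libraries. *Ccr2* was at 2243 to 2884 CPM in monocytes, 510.2 to 759 CPM in Tim-4-CD4-, 65.2 to 113 CPM in Tim-4-CD4+, and 4.84 to 15.8 CPM in Tim-4+CD4+ macrophages. *Slc40a1* took the opposite order, at 0.0186 to 0.142, 24.3 to 30.1, 85.4 to 106, and 208 to 232 CPM, and *Gpnmb* was at 1.19 to 2.56, 13.5 to 26.1, 49.4 to 62.8, and 185 to 214 CPM. None of these 4 ranges overlapped within a gene.

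Other genes did not keep such an order. *Retnla* was at 0 counts in all 3 monocyte libraries, and at 0.796 to 2.43 CPM in Tim-4+CD4+ macrophages, between its levels in the subsets without Tim-4. *Mmp9* was at 0.892 to 1.53 CPM in monocytes and at 1958 to 2367 CPM in Tim-4+CD4+ macrophages, below its range of 2887 to 3276 CPM in Tim-4-CD4+ macrophages. *Il12rb2* was at 15.8 to 19.7 CPM in monocytes, above its 5.71 to 7.01 CPM in Tim-4-CD4- macrophages, and *Plac8* had reached 6.53 to 9.91 CPM in Tim-4+CD4+ macrophages, overlapping the 7.07 to 11.7 CPM of Tim-4-CD4+ macrophages.

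In summed level, ribosomal protein genes were at 29940.0 to 34220.0 CPM in monocytes and 13990.0 to 20140.0 CPM in Tim-4+CD4+ macrophages, the latter overlapping the 15550.0 to 18440.0 CPM of Tim-4-CD4+ macrophages. Cholesterol genes were at 940.8 to 1192 CPM in monocytes and 1302 to 1606 CPM in Tim-4+CD4+ macrophages, which also overlapped the range with CD4 alone. The tissue-resident genes of the study summed to 23.5 to 36.8 CPM without CD4, 40.2 to 63.6 CPM with CD4 alone, and 502.3 to 586 CPM in Tim-4+CD4+ macrophages. Most of the last sum came from *Timd4*, the gene of a protein used in the sort, so that the sort itself largely sets it.

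**Figure D5:**
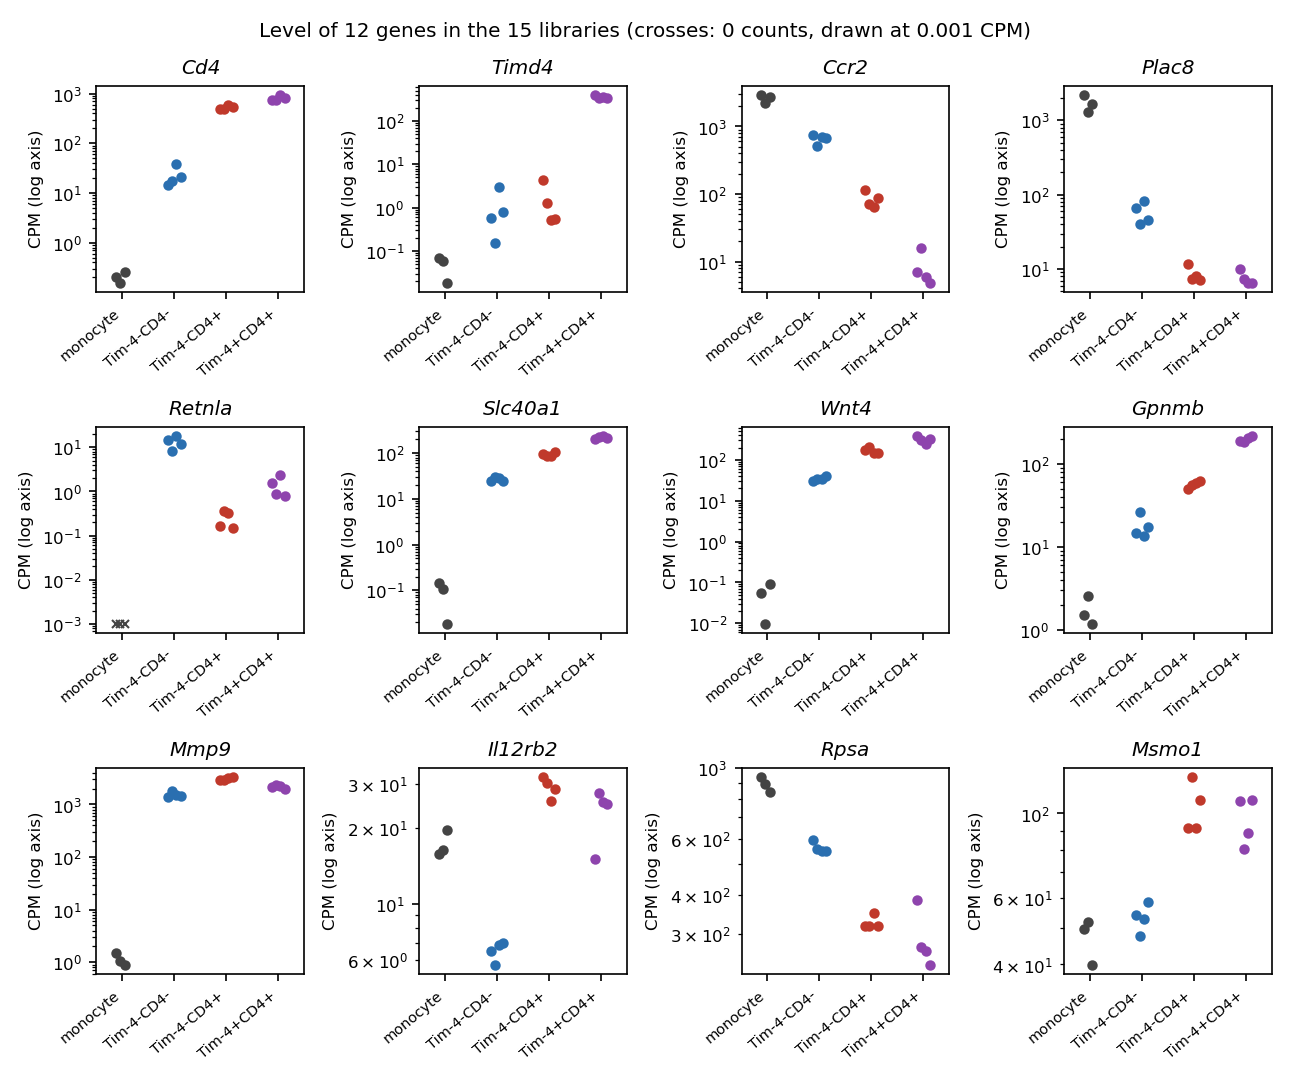
Level of 12 genes in CPM (log axes) in the 15 libraries (monocytes and the 3 macrophage subsets, without Tim-4 and CD4, with CD4 alone, and with both), with 1 point per library and crosses for 0 counts, drawn at 0.001 CPM. *Ccr2* steps down and *Slc40a1* steps up over the 4 populations, whereas *Retnla* is lowest among the macrophages in Tim-4-CD4+ cells and *Il12rb2* is lowest in Tim-4-CD4- cells.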

How the data were processed

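The 8 libraries compared were polyadenylated, strand-specific, and read from both ends. The authors demultiplexed the reads with bcl2fastq 2.17.1.14, removed adapters and poor bases with Trimmomatic 0.36, mapped the rest with STAR to GRCm38.p4, and deposited the counts of uniquely mapped reads per gene made with HTSeq 0.6.1p1 against GENCODE vM11. How the count treated strand is not given in the sources used here, so that overlapping and antisense genes may share reads. The 15 columns of normalized values beside the counts were not used. Of the 19456 genes in the table, each with at least 16 reads in total, 19421 were matched to GENCODE M21 for coordinates.

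Counts of all 15 libraries were filtered by population (filterByExpr), scaled (TMM), and fitted with edgeR 4.0.16 in R 4.3.3 (quasi-likelihood test, 1 mean per population, no block), with Benjamini-Hochberg adjustment over 15802 genes. The standard error was the size of the log2 difference divided by the square root of the F statistic. No set test was run. On simulated counts with 200 changed genes of 15458, edgeR called 145 and recovered 57% of 2-fold and 80% of 4-fold changes, with 5.52% of its calls false. Each library is a pool of mice, and p-values measure the spread between libraries. Whether libraries of the 2 subsets came from the same pools is not given by the labels. For the macrophages, the study describes independent sorts of pooled mice. The fit took the libraries as independent, and a block by the libraries that deviated together, given below, was not fitted. A gene with 0 counts in a library may have had up to 3, and this bound covers counting error only. Plots came from matplotlib 3.10.9 in Python 3.11.15.

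Named genes were those of the sort and those that the study names for this pair, the 12 largest changes in each direction that averaged at least 1 CPM and did not overlap, the 8 most abundant genes changed at least 2-fold in each direction, and the 3 largest changes of each list in each direction with members needed for their role. The genes, lists, and members were chosen with earlier results of these data known. The alternatives were DESeq2 1.42.0, other scalings and filters, thinned counts, only the 8 libraries, a replicate block, and leaving out each library. Same-numbered libraries were not treated as pairs, because the titles and descriptions number the Tim-4-CD4+ libraries differently and under neither numbering did every pair deviate together.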

Additional observations from a re-analysis of the deposited data

Results flagged for a closer look

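For the named genes, each group of 4 libraries was searched for a library far from the other 3 by Dixon's gap criterion. This found 28 of 476 groups, and chance alone finds about 1 in 20, so that a single such library says little. The other libraries of the group are given in brackets, in CPM. No explanation of these values was tested.

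Tim-4-CD4- replicate 3 was high for *Cdh1* at 10.7 (1.28 to 1.45), *Itgae* at 24.7 (3.21 to 5.43), *Cd209a* at 67.7 (27.6 to 31.8), and *S100a11* at 48.4 (26.0 to 28.2), and low for *Il1a* at 48.7 (68.1 to 71.8) and *Cd22* at 117 (125 to 127). Tim-4-CD4- replicate 4 was high for *Spock1* at 1.09 (0.31 to 0.388). Tim-4-CD4- replicate 2 was high for *Irf8* at 570.0 (493 to 504) and *Sod2* at 91.7 (80.3 to 81.4) and low for *Rps28* at 168 (280 to 301). Tim-4-CD4- replicate 1 was high for *Rpsa* at 595 (549 to 557) and low for *Ltb4r1* at 6.32 (8.24 to 8.43).

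Tim-4-CD4+ replicate 1 was high for *S100a4* at 0.403 (0.0253 to 0.027), *Tnip3* at 1.17 (0.217 to 0.365), *Flt3* at 1.61 (0.52 to 0.607), *St3gal5* at 0.971 (0.294 to 0.405), *Lsp1* at 16.6 (12.1 to 12.4), and *Cd36* at 106 (83.1 to 85.9). Tim-4-CD4+ replicate 3 was high for *Jun* at 4150 (3220 to 3370), *Nfkbiz* at 1920 (1750 to 1770), *Traf1* at 8.86 (6.07 to 6.45), *Id3* at 11.5 (6.37 to 6.95), *Rpsa* at 351 (318 to 319), and *Hoxb6* at 1.23 (0.623 to 0.683), and low for *Cx3cr1* at 828 (1080 to 1100). Tim-4-CD4+ replicate 2 was high for *Hk3* at 232 (226 in the others) and low for *P2ry2* at 4.88 (6.00 to 6.19). Tim-4-CD4+ replicate 4 had 0.00675 of *Entpd3*, from 1 count, where the others had 0.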

How the results depend on the processing

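Between 1412 (all genes with at least 1 count) and 2234 (only the 8 libraries compared) genes were called under the 9 other settings, against 1589, and 1033 to 1591 with each library left out in turn. The genes called higher numbered 1088 with DESeq2 and 1114 with only the 8 libraries compared, against 715, and 484 to 698 with each library left out. The genes called lower numbered 549 to 893 with each library left out, and those changed at least 2-fold 384 to 486. The lowest of these counts were without Tim-4-CD4+ replicate 4, the deepest library. The share of calls that were higher ran from 43.9% to 50.5%, against 45.0%. Of 214 named genes that were called, 0 changed direction, 173 kept the call under every setting, and 41 lost it under some, 24 of these only when a library was left out. Of the other 17, 9 (*C2*, *Cox5b*, *Fzd4*, *Hes1*, *Il23a*, *Itgae*, *Lgmn*, *Nlrc4*, and *Rrm2*) lost it under another scaling, filter, depth, or set of libraries, and 8 under a block but none of these. Among genes that were not called, the sign changed when single libraries were left out for *Timd4* (-0.62 to 1.74), *Fos* (-0.065 to 0.088), and *Jun* (-0.14 to 0.020), and the cause was not tested. With a replicate block by the title numbers, 1500 genes were called, and by the description numbers 1988. The title block did not call 13 named genes that were otherwise called (*C2*, *Sigirr*, *Rps28*, *Rrm2*, *Mcm5*, *Cdh1*, *Itgae*, *Adam28*, *Mmp8*, *Hes1*, *Fzd4*, *P2ry2*, and *Hoxb6*, adjusted p = 0.052 to 0.14) and called *Dtx3* (0.033) and *Isg15* (0.0084). The description block did not call *Rrm2* and *Hes1* (0.055 and 0.091) and called *Dtx3*, *Il10*, *Cd163*, *Entpd1*, and *Isg15* (0.0016 to 0.032). Of the list counts, the title block moved by more than 1.5 times the rises of monocyte (0 to 1), tissue-resident (5 to 2), interferon (0 to 2), complement (2 to 1), iron (1 to 2), and Notch, Wnt, and Hedgehog genes (2 to 4) and the falls of interferon (1 to 2), MHC class I (0 to 2), replication (2 to 5), and neutrophil and eosinophil genes (1 to 0). The description block moved the rises of monocyte (0 to 1), interferon (0 to 3), cytokine (0 to 1), lineage factor (2 to 4), iron (1 to 5), glycolysis (1 to 2), eicosanoid (3 to 5), Notch, Wnt, and Hedgehog (2 to 4), and dendritic cell genes (0 to 1) and the falls of interferon (1 to 4), MHC class I (0 to 3), interleukin-10 and TGF-β (2 to 4), respiratory chain (5 to 8), replication (2 to 10), dendritic cell (5 to 9), epithelial (0 to 1), and endothelial genes (0 to 1). The deviations of same-numbered libraries correlated at -0.0379 to -0.0797 by title numbers and at -0.0888 to 0.161 by description numbers. Under neither numbering did every library correlate best with its own number. Each library did have a single partner with a positive correlation. Tim-4-CD4- replicates 1, 2, 3, and 4 went with Tim-4-CD4+ replicates 4 (0.219), 3 (0.24), 1 (0.136), and 2 (0.161). A block by these partners was not fitted, and shared pools were not tested. Depth limits genes near 1 CPM and below, where few counts separate the groups.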

Other observations

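The genes and families in this part were chosen after their values were seen and are given as a description. Of 9 tested S100a genes, which encode calcium-binding proteins, 5 fell and 0 rose. *Anxa2*, a membrane-organizing annexin, was at 40.4, 43.9, 44.4, and 38.4 CPM without CD4 and 9.62, 8.47, 11.5, and 7.75 CPM with CD4 (log2 difference -2.16 ± 0.14, adjusted p = 1.4e-07), and its binding partner gene *S100a10* was at 8.3, 9.87, 9.77, and 9.14 CPM without CD4 and 3.39, 2.23, 3.38, and 2.38 CPM with CD4 (log2 difference -1.70 ± 0.15, adjusted p = 2.3e-06). *S100a11* (-1.92, adjusted p = 6.2e-06) and *Tmsb10*, an actin-sequestering peptide (-1.52, adjusted p = 0.00016), fell as well. *Il17ra*, a chain of the interleukin-17 receptor, was at 41.1, 37, 33, and 32.5 CPM without CD4 and 10.7, 7.51, 9.42, and 7.07 CPM with CD4 (log2 difference -2.05 ± 0.14, adjusted p = 1.4e-07), against 897 to 1006 CPM in monocytes. All of these were separate between the groups.

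Of 17 tested Hox genes, 4 rose and 0 fell, all from the Hoxb cluster. *Hoxb4* was at 18.2, 15.4, 15.7, and 17.4 CPM without CD4 and 24.1, 32.7, 28, and 28.4 CPM with CD4 (log2 difference 0.76 ± 0.14, adjusted p = 0.0018), *Hoxb3* rose with it (0.67, adjusted p = 0.011), and so did *Hoxb5* (2.08, adjusted p = 9.9e-06). *Hoxb6*, the other called member, was low at 0.0647 to 0.44 CPM without CD4 and 0.623 to 1.23 CPM with CD4 (2.05, adjusted p = 0.030), and the call was lost without Tim-4-CD4- replicate 1, 2, or 3 or Tim-4-CD4+ replicate 2, 3, or 4, with adjusted p up to 0.091. *Pla2g2d*, a secreted phospholipase, was at 50.9, 74.1, 52.2, and 65.5 CPM without CD4 and 172, 209.9, 225, and 169 CPM with CD4 (log2 difference 1.68 ± 0.13, adjusted p = 6.5e-07), and was higher still in Tim-4+CD4+ macrophages, at 905 to 997 CPM. *Vipr1*, a receptor for vasoactive intestinal peptide, a neuropeptide of the gut wall, was at 18.8, 18.6, 15, and 18.1 CPM without CD4 and 28.4, 39, 42.8, and 41.2 CPM with CD4 (log2 difference 1.10 ± 0.14, adjusted p = 8.1e-05). The groups were separate for *Hoxb4*, *Pla2g2d*, and *Vipr1*.

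Genes of translation other than ribosomal proteins fell in part. Of 67 initiation and elongation factor genes, 16 fell and 2 rose (median -0.20), and of the 12 subunits of the initiation factor eIF3, 9 fell and 0 rose (median -0.37). *Eef2*, the elongation factor that moves the ribosome along the message, was at 2509.9, 2849.7, 2361, and 2257 CPM without CD4 and 1723, 1649, 2144, and 1843 CPM with CD4 (log2 difference -0.44 ± 0.10, adjusted p = 0.0071). *Eif3f* (-0.54, adjusted p = 0.0084) and *Eef1a1* (-0.42, adjusted p = 0.0026) fell by similar amounts. Of 79 mitochondrial ribosomal protein genes, 5 fell and 0 rose (median -0.16), and of 49 proteasome genes, 1 fell and 0 rose (median -0.13). Both shares were near or below the 5.53% of all tested genes that fell. Of 12 tubulin genes, 5 fell and 0 rose (median -0.48), among them *Tubb5* (-0.44, adjusted p = 0.0039), while of 353 Zfp zinc finger genes, 27 rose and 3 fell (median 0.18).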
